A study of Mus musculus with 6 samples.

Results

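The 9 genes described here encode enzymes that carry long-chain fatty acids into mitochondria and shorten them there: the carnitine palmitoyltransferases Cpt1a, Cpt1b and Cpt2, the acyl-CoA dehydrogenases Acadvl, Acadl, Acadm and Acads, and the 2 subunits of the mitochondrial trifunctional protein, Hadha and Hadhb. They were taken by name, with earlier results of these data known. All 9 lie on sequence that the analysed data cover, among 15771 protein-coding genes there. The data came from primary chondrocytes cultured from the knee articular cartilage of mice at postnatal day 3 to 5, in which DNA fragments of about 300 bp bearing methylated CpG were captured with the protein MBD2 and sequenced (MBD-seq). By the labels, 3 cultures were controls of genotype Dnmt1 flox with no Cre named, and 3 were conditional knockouts (cKO) of genotype Prx1-Cre;Dnmt1 flox/flox, in which the Prx1 promoter drives Cre in limb mesenchyme; Dnmt1 is the enzyme that restores CpG methylation after DNA replication. All 6 were grown in the same serum-containing medium.

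The values analysed were a single list of 84111 regions enriched for methylated DNA (peaks), called on 3 merged datasets whose group the list does not name. The submitters label the list as Dnmt1-mediated DNA methylation regions. The list does not state how such regions were chosen, and whether the peaks depend on Dnmt1 was not tested. No value belongs to a single culture. Control and cKO therefore could not be compared at any gene, the spread between animals and the depth of each library are unknown, and what follows describes where peaks lie and how strong they are, with no test. The lowest −log10 q in the list was 20.004. A gene without a peak is one with no region in the list. That does not show that it was unmethylated: the choice of regions is not stated, and capture also needs CpG to be present. The assay gives no expression, and the labelled cell type could not be checked against marker genes. A peak was assigned to a gene when its midpoint lay in the gene or within 5 kb of either end.

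In mitochondrial fatty acid oxidation, Cpt1 on the outer membrane joins a long-chain acyl group to carnitine, and Cpt2 on the inner membrane returns it to coenzyme A. An acyl-CoA dehydrogenase chosen by chain length then opens each round of β-oxidation, and the trifunctional protein carries out the remaining steps for long chains. Growth plate cartilage has no blood vessels, and its chondrocytes are known for a metabolism that leans on glycolysis. The title of the series names energy metabolism of growth plate chondrocytes as its subject.

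In all, 42 peaks were assigned to the 9 genes, 33 of them inside a gene body and 9 in the flanks. At least 1 peak was found at 8 of the 9 genes; over all protein-coding genes the share was 74.1%. The exception was Hadhb, with none. The number per gene ran from 0 to 8 with a median of 5, beside a median of 2 over protein-coding genes (quartiles 0 and 4). Pooled over the 9 windows there were 13.3 peaks per 100 kb, beside 5.61 per 100 kb over all protein-coding windows together. The genes differed widely among themselves: Acadvl, Acads and Cpt1b, the 3 shortest, held 22 of the 42 peaks.

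**Figure D1:**
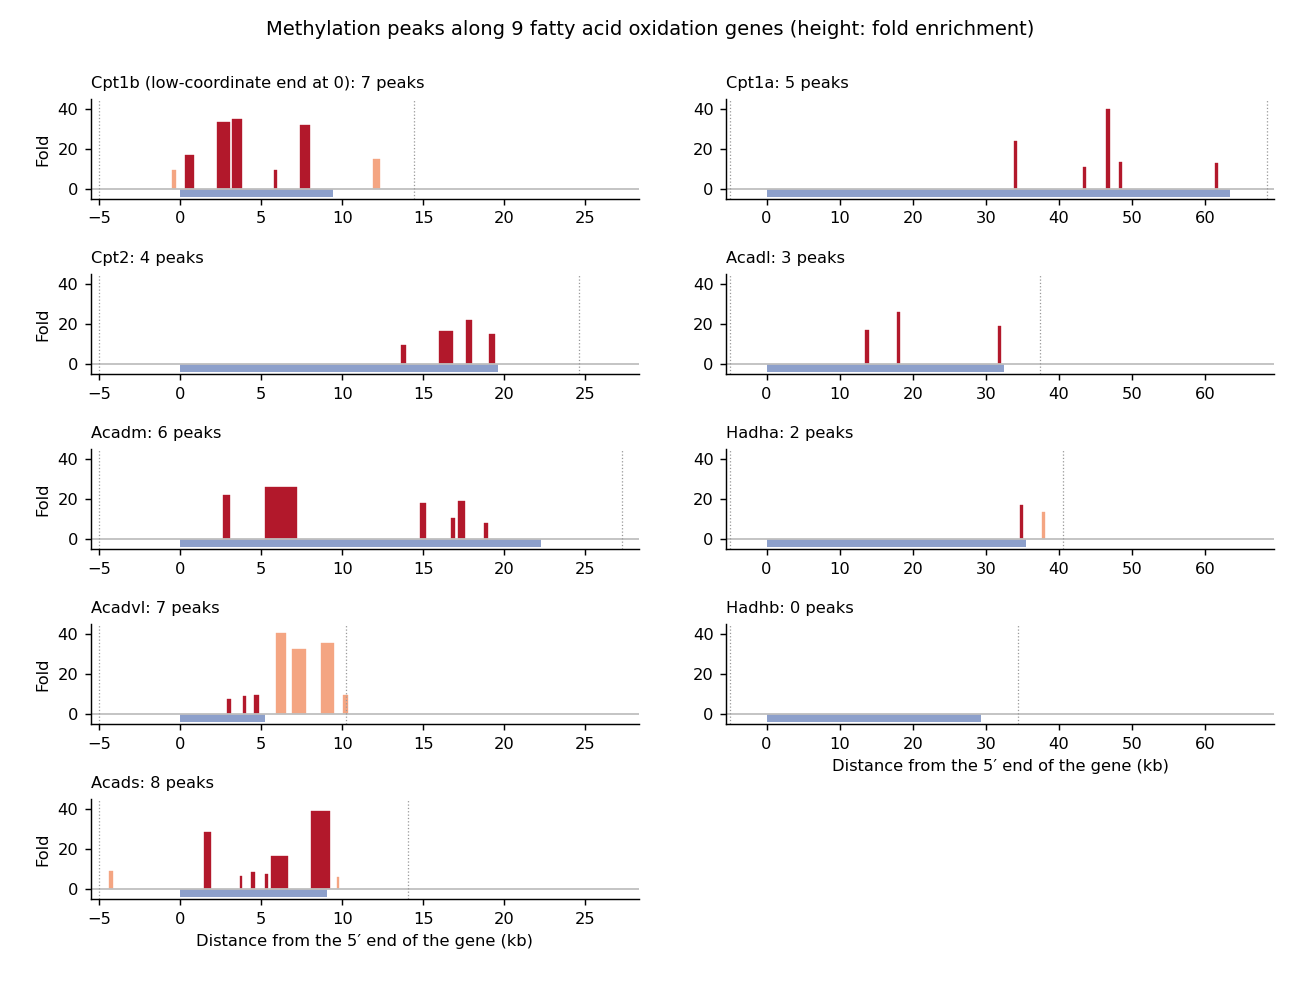
Peaks along each of the 9 genes, drawn from the 5′ end (Cpt1b from its low-coordinate end) in kb; the blue bar is the gene, dotted lines mark 5 kb on either side, bar width is the peak width and bar height the authors' fold enrichment, dark red in the gene and light red outside it. Cpt1a, Cpt2 and Hadha carry their peaks toward the 3′ end, and Hadhb carries none.

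No peak touched the start of any of these genes that the RefSeq promoter table (GRCm38.p6) lists. It holds 8 of the 9, each as 250 bases before and 50 after the start site; Cpt1b is not among them. Not 1 of the 8 promoter windows was overlapped by a peak, beside 3.43% of 12547 protein-coding genes in that table, and none had a peak midpoint within 1 kb of its start site, beside 7.81%. Both shares are low, so 0 of 8 is near the background. The 250 bases upstream of 4 start sites are printed because they span the range of CpG content among the members, from Acadvl with the fewest to Acadl with the most, and because 1 of them lies between Hadha and Hadhb; each CpG is in capitals.

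Acadvl, chr11:70015429-70015678, minus strand: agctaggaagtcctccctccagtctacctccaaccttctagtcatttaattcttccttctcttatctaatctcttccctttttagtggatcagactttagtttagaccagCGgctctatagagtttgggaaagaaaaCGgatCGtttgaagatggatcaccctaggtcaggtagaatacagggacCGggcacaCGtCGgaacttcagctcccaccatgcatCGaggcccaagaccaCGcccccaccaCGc
Acads, chr5:115119347-115119596, minus strand: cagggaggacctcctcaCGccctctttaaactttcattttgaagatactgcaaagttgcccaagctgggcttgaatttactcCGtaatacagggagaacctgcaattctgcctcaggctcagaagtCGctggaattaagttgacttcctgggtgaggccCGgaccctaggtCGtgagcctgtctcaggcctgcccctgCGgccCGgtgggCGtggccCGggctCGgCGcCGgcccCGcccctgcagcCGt
Hadhb, chr5:30155003-30155252, plus strand: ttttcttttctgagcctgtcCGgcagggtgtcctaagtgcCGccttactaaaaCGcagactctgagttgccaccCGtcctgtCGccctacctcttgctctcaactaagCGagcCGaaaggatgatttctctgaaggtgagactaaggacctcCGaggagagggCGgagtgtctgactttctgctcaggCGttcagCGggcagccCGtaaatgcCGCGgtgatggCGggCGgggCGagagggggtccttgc
Acadl, chr1:66863310-66863559, minus strand: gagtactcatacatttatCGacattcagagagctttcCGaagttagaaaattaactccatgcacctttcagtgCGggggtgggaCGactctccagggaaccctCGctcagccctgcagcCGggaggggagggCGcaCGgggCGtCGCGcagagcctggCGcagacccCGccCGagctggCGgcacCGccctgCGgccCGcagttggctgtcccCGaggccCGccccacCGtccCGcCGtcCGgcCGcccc

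These stretches hold 9, 14, 17 and 25 CpG in the order printed. The Hadhb stretch is shared: 272 bases separate the gene bodies of Hadha and Hadhb, which are transcribed away from each other. In the full 300-base windows, a search for the letters CG, which read the same on both strands, found 9 CpG in Acadvl, 13 in Acadm, 17 in Cpt2 and in Acads, 20 in Hadha, 22 in Cpt1a, 24 in Hadhb and 34 in Acadl. The median over 15401 promoter windows of protein-coding genes was 14 (quartiles 4 and 25). As many CpG as Acadvl or more were held by 61.6% of those windows, and as many as Acadl or more by 11.2%.

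Promoter windows with a peak were commonest at middling CpG content. A peak overlapped 8.90% of the 2269 windows with 5 to 9 CpG, where Acadvl falls, and 6.35% of the 1511 windows with 10 to 14, where Acadm falls. The share was 2.47% at 15 to 19 CpG, the class of Cpt2 and Acads, and 1.18% at 20 to 24, the class of Cpt1a, Hadha and Hadhb. At 30 or more, the class of Acadl, it was 0.422%.

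**Figure D2:**
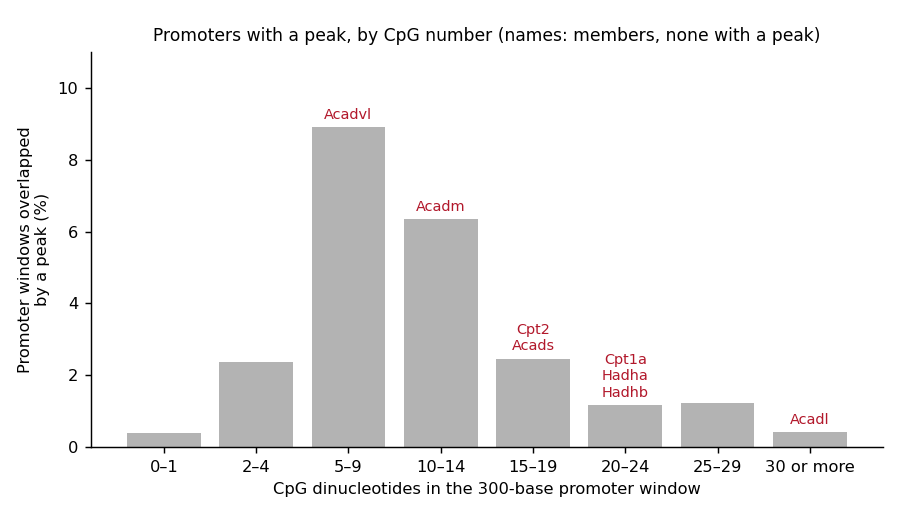
Share of promoter windows of protein-coding genes overlapped by a peak (percent, vertical axis) by the number of CpG in the 300-base window (horizontal axis), with the 8 members named above the class they fall in. The share is highest, 8.90%, at 5 to 9 CpG, and no named member has a peak.

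Among the carnitine palmitoyltransferases, Cpt1a is the form known from liver and most other tissues and catalyses the step at which the pathway is controlled by malonyl-CoA. It spans 63.4 kb on chromosome 19 (3322326 to 3385735, plus strand) and had 5 peaks, all in the body. The first lay 33.1 kb downstream of the start site at chr19:3356134-3356622, with a fold of 24.1, where fold is the enrichment over the background of the authors' peak caller. The next lay at 42.5 kb (fold 10.7), and 3 more followed at 45.7 kb (fold 40.1), 47.5 kb (fold 13.3) and 60.6 kb (fold 13.2). The strongest, chr19:3368747-3369296, was 550 bp wide and rested on a recovered pileup of 349 reads against 7.72 in the background (−log10 q of 429). The other 4 had pileups of 78 to 177 reads over 6.37 reads, the commonest background in the list, taken here as its lowest.

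All Cpt1a peaks therefore lay beyond the middle of the gene, between 53.7% and 97.1% of its length. A stretch of 81.5 kb without a peak ran across its start, from 3274641 to 3356134. Of all gaps between neighbouring peaks 6.33% were at least as long, and the median gap was 8.60 kb. The stretch is the longest gap touching the gene, a choice that favours long gaps. Longest gaps at genes of similar length were not measured, so whether it is unusual for such a gene is not known. Of 500 protein-coding genes nearest in length, from 58.2 to 69.1 kb, 56.8% had fewer peaks than Cpt1a (median 4, quartiles 2 and 7). The genes just shorter and just longer, Knl1 and Fam185a, had 0 and 2.

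Cpt1b, the form of muscle and brown fat, was among the most densely marked. In 9.46 kb on chromosome 15 (89416405 to 89425862) it held 5 body peaks, and 2 more lay within 5 kb. From the low-coordinate end the body peaks had folds of 17.0, 33.2, 34.9, 9.22 and 31.9, and widths of 569, 775, 621, 194 and 615 bp. The 2 strongest, chr15:89418687-89419461 and chr15:89419610-89420230, lay 148 bp apart, with pileups of 342 and 256 reads. Peaks covered 29.3% of the gene.

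Only 1.4% of the 500 genes of similar length had at least as many peaks as Cpt1b (median 1, quartiles 0 and 3). Their median share of the body in peaks was 3.07%, and the 95th percentile 19.7%. The genes just shorter and longer, Sh2d1b1 and Zc3h12a, had 0 and 3 peaks. All 5 body peaks also lie in Gm44502, a lncRNA model of the table that spans Cpt1b and its neighbour Chkb, a choline kinase gene. One flank peak, chr15:89428335-89428740 with a fold of 14.8, lay in Chkb, and the other, of fold 9.63, lay 0.357 kb beyond the low-coordinate end, in no gene.

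Cpt2, the inner membrane enzyme, had 4 peaks in 19.6 kb on chromosome 4 (107903982 to 107923589, minus strand), all in the last part of the gene. They lay 13.8, 16.4, 17.8 and 19.2 kb downstream of the start site, with folds of 9.63, 16.7, 21.7 and 14.8 and pileups of 70, 122, 159 and 108 reads. All 4 stood over the lowest background. No peak midpoint lay in the first 70% of the gene, and the last, chr4:107904177-107904543, was 0.378 kb from the far end. Among genes of similar length 71.6% had fewer peaks (median 2, quartiles 1 and 4); Chrm1 and Kif18b, just shorter and longer, had 1 and 3.

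The acyl-CoA dehydrogenases differ in the chain length they accept. Acadvl acts on very long chains and is bound to the inner membrane. It is the shortest of the 9 genes, 5.25 kb on chromosome 11 (70010183 to 70015428, minus strand), and its 3 body peaks were weak and narrow. They had folds of 7.73, 8.95 and 9.36 at 3.02, 3.996 and 4.72 kb from the start site, with widths of 236, 188 and 279 bp and pileups of 56, 65 and 68 reads.

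The other 4 peaks counted for Acadvl lay in the neighbouring gene Dvl2, a transducer of Wnt signals whose body lies 73 bp beyond the far end of Acadvl. Their folds were 9.63, 35.7, 32.7 and 40.6 by rising coordinate, so all 4 had a higher fold than any peak within Acadvl. The one nearest to Acadvl, chr11:70008915-70009509, had a fold of 40.6, the highest of all 42. With the flanks counted, 0.6% of the genes of similar length had at least as many peaks as the 7 of Acadvl; by the body alone the share was 2.8%. The genes just shorter and longer, 2210010C04Rik and Odf4, had none.

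Acadl acts on long chains. It had 3 peaks in 32.5 kb on chromosome 1 (66830839 to 66863309, minus strand), at 13.7, 18.0 and 31.8 kb from the start site. Their folds were 17.0, 25.9 and 18.7. The first of these, chr1:66849307-66849869, has its midpoint in the pseudogene Gm15793 inside Acadl, and its pileup of 365 reads, the highest of the 42, stood over a background of 20.6 reads, also the highest. Reads from near-identical copies cannot always be placed, and whether this bears on that peak was not tested. The number of peaks equalled the median of genes of similar length (3, quartiles 1 and 5). Vmn2r99 and Zfp758, just shorter and longer, had 1 each.

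Acadm acts on medium chains and is the enzyme lost in the commonest inherited disorder of the pathway. It had 6 peaks, all in the body, in 22.3 kb on chromosome 3 (153922353 to 153944643, minus strand). From the start site they lay at 2.86, 6.25, 14.99, 16.8, 17.4 and 18.9 kb, with folds of 22.1, 25.8, 17.9, 10.4, 19.1 and 8.14. Peaks thus formed a pair near the 5′ end and a group of 4 toward the 3′ end, with none between.

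The second Acadm peak, chr3:153937408-153939389, was 1982 bp wide, the widest of the 42, and its pileup was 309 reads against a background of 10.998 reads. Peaks over 1000 bp made up 3.96% of all peaks in protein-coding windows. Together the 6 peaks covered 16.6% of the gene, beside a median of 2.61% and a 95th percentile of 15.3% among genes of similar length. By number, 87.0% of those genes had fewer (median 2, quartiles 1 and 4). The genes just shorter and longer, Rsph1 and Supv3l1, had 5 each.

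Acads acts on short chains and had most peaks, 8, for a gene of 9.05 kb on chromosome 5 (115110299 to 115119346, minus strand). The 6 body peaks lay at 1.69, 3.76, 4.49, 5.34, 6.13 and 8.66 kb from the start site, with folds of 28.8, 6.65, 8.55, 7.75, 16.8 and 38.9. The 3 weakest thus lay in a row between stronger peaks on either side: the widths ran from 114 to 1173 bp and the pileups from 48 to 286 reads. The peak at 1.69 kb, chr5:115117420-115117894, was the closest to a start site among the 8 genes with a listed promoter.

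Peaks covered 32.8% of Acads, the highest share of the 9, beside a median of 3.26% and a 95th percentile of 20.1% among genes of similar length. At least as many peaks were found at 0.4% of those genes. Smg8 and Ccdc183, just shorter and longer, had 3 and 1. The strongest peak, chr5:115110103-115111275, ran past the far end of Acads and overlapped the promoter window of Rpl37rt, the gene 30 bp beyond it, which holds 12 CpG. It was the only listed promoter window of any gene that a peak of the 42 overlapped. Of the 2 flank peaks, that in Rpl37rt had a fold of 6.24 and a width of 85 bp, the lowest and the narrowest of the 42, and that in Unc119b a fold of 8.82.

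**Figure D3:**
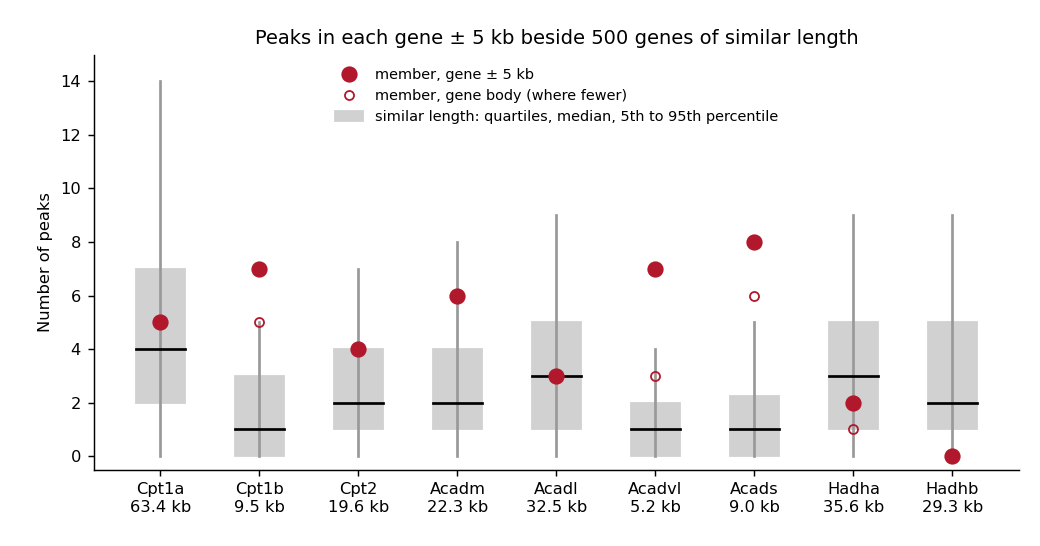
Number of peaks (vertical axis) at each of the 9 genes, counted in the gene and 5 kb on either side (filled) or in the body alone where that is fewer (open), beside 500 protein-coding genes nearest in length (box: quartiles; line: median; whisker: 5th to 95th percentile). Cpt1b, Acadvl and Acads lie above the whisker with 7, 7 and 8 peaks, and Hadhb lies at 0.

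The trifunctional protein genes were the sparsest. Hadha encodes the subunit with enoyl-CoA hydratase and hydroxyacyl-CoA dehydrogenase activity. It spans 35.6 kb on chromosome 5 (30119423 to 30154980, minus strand), and its only body peak, chr5:30119844-30120270, lay 0.634 kb from the far end with a fold of 17.0, a width of 427 bp and a pileup of 124 reads. A second peak, of fold 13.4, lay 2.30 kb beyond the far end in Garem2. Of 500 genes of similar length 69.4% had at least as many peaks (median 3, quartiles 1 and 5); Zfp942 and Fnbp4, just shorter and longer, had 1 and 2.

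Hadhb encodes the thiolase subunit. No peak was assigned to its 29.3 kb (30155253 to 30184593, plus strand) or to its flanks, also when these were widened to 10 kb. Among 500 genes of similar length, 19.4% likewise had none (median 2, quartiles 1 and 5). The gene just shorter, Zfp512, had 4. The peak-free stretch began at the Hadha peak, at 30120270, and ended at 30196696, a length of 76.4 kb. It takes in almost all of Hadha, the interval between the genes and the whole of Hadhb. Of all gaps between peaks 7.05% were at least as long. This too is the longest gap touching each gene, and longest gaps at genes of similar length were not measured.

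Against length, 7 of the 9 genes had at least the median number of peaks of their 500 neighbours in length; over all protein-coding genes this share was 60.9%. Hadha and Hadhb were the 2 below. Of the 4 longest members, Cpt1a, Acadl and Hadha lay within the quartiles of genes of their length and Hadhb below them, whereas Cpt1b, Acadvl and Acads lay above the 95th percentile.

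Body peaks lay toward the 3′ end. In the 7 genes with a listed strand and a body peak, 22 of 28 body peaks lay beyond the middle of the gene (78.6%), beside 61.8% of 35568 such peaks over protein-coding genes with a listed strand. The median position was 72.0% of the way from the 5′ end, beside 61.8%. None of the 28 lay in the first 10% of a gene, where 5.66% of all such peaks lay, and 6 lay in the last 10% (21.4%, beside 16.5%). The rise toward the 3′ end is thus general, and the members' peaks share it.

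A peak midpoint lay within 1 kb of the far end in 5 of the 8 genes with a listed strand, namely Cpt2, Acadl, Acadvl, Acads and Hadha; over protein-coding genes the share was 16.9%. Of these peaks, 1 of 2 at Acadvl and 1 of 2 at Acads lie in the next gene.

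**Figure D4:**
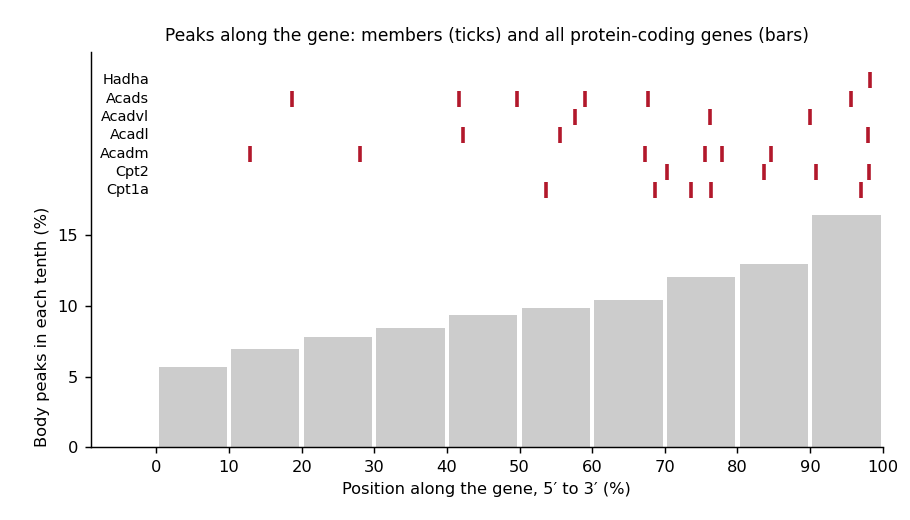
Position of body peaks along the gene in percent from the 5′ end (horizontal axis): ticks are the 28 member peaks, 1 line per gene, and bars give the share of body peaks of all protein-coding genes in each 10% of the gene (vertical axis, percent). The bars rise from 5.66% to 16.5%, and no tick lies in the first 10%.

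Peak by peak, the 42 had medians of width and pileup close to those of other genes and a somewhat higher median fold. The median fold was 16.7 (quartiles 9.63 and 25.4, range 6.24 to 40.6), beside 13.7 (quartiles 8.68 and 22.5) over 48010 peaks in protein-coding windows. The median width was 396 bp (quartiles 268 and 568, range 85 to 1982), beside 391 bp, and the median pileup 123 reads, beside 115. A fold of at least 20 was reached by 14 of 42 (33.3%), beside 30.5%. A background other than the commonest value, 6.37 reads, was found at 7 of 42 (16.7%), beside 15.3%.

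Folds over 30 were reached by 8 of 42 peaks (19.0%), beside 12.2%: 3 in Cpt1b, 3 in Dvl2 next to Acadvl, 1 in Cpt1a and 1 at the end of Acads. By role, the median fold was 15.7 over the 16 peaks of the carnitine palmitoyltransferases, 16.9 over the 24 of the dehydrogenases and 15.2 over the 2 of Hadha. Inside the gene bodies the widest range within 1 gene was at Acads, from 6.65 to 38.9. At the edge of the windows, the peaks just inside lay 4.29 kb from Acads (fold 8.82) and 4.95 kb from Acadvl (fold 9.63), and those just outside 6.15 kb from Cpt1b (fold 7.94) and 6.86 kb from Acads (fold 26.4).

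**Figure D5:**
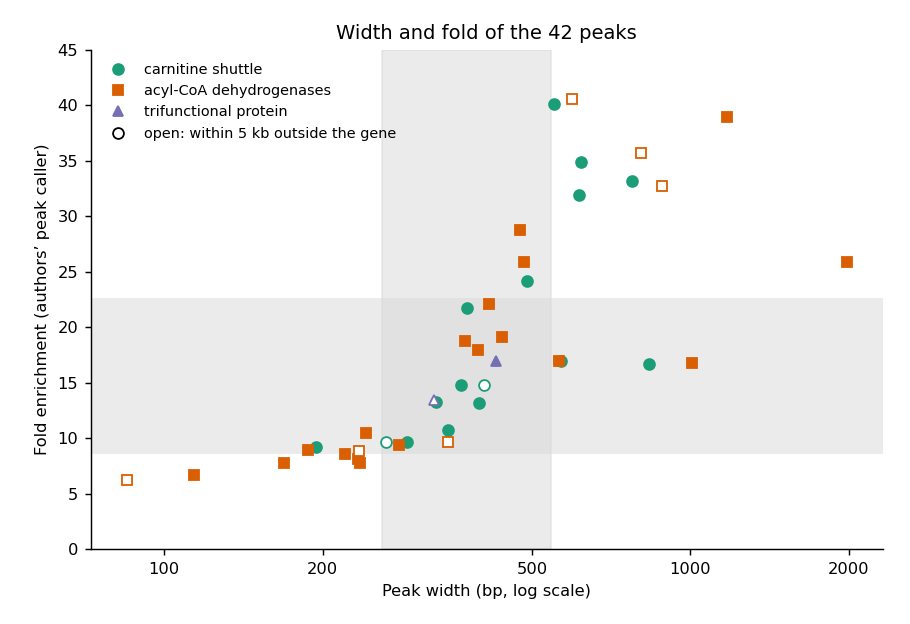
Fold enrichment (vertical axis) against width in bp (horizontal axis, log scale) of the 42 peaks by role of the gene, filled in the gene and open outside it; grey bands are the quartiles over peaks in protein-coding windows. Narrow peaks have low folds, and folds over 30 are found at widths of 550 bp and more.

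Of 57 further genes of fatty acid uptake, activation, oxidation and its control, 39 lie on covered sequence; the others were not analysed here. A peak was found at 34 of the 39, beside the 74.1% of protein-coding genes, and 27 of 39 had at least the median number of genes of their length, beside 60.9%. Their median was 4 peaks and the range 0 to 30. Of the 30 with a listed promoter, none was overlapped there by a peak, beside 3.43% of protein-coding genes. That share is low, so 0 of 30 is near the background, as was the 0 of 8 among the enzymes with a listed promoter.

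By step, peaks were found at 6 of 8 uptake and activation genes, 2 of 3 further carnitine shuttle genes, 4 of 4 further dehydrogenase and electron transfer genes, 6 of 6 genes of other matrix steps, 7 of 9 peroxisomal genes, 2 of 2 genes of malonyl-CoA control and 7 of 7 transcriptional regulators. The share over protein-coding genes was 74.1%, the steps hold 2 to 9 genes each, and differences between them were not tested. Acacb, which makes the malonyl-CoA that inhibits Cpt1 at mitochondria, had most peaks, 30 in 104 kb, where genes of its length had a median of 5. Its relative Acaca, the cytosolic enzyme of fatty acid synthesis, had 4 in 272 kb, where the median was 8.

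The phosphatidate phosphatase and coactivator gene Lpin1 had 13 peaks, and Hadh, the short-chain hydroxyacyl-CoA dehydrogenase, and Ppard, a nuclear receptor for fatty acids, had 10 each. Among those with 9 were Eci2, Acsl6, Ppara, Ppargc1a and Ppargc1b. Ppara is the main receptor through which fatty acids induce the pathway, and its 9 stood beside a median of 4 for its length, whereas the 9 of its coactivator Ppargc1a, a gene of 662 kb, stood beside 11. No peak was assigned to Fabp5, Acsl5, Slc22a5, Decr2 or Eci3. A peak lay within 1 kb of a gene end at 4 of the 39: Decr1, Abcd2, Acaca and Rxra. For Acaca and Rxra, and for no other of the 30 with a listed strand, it was the far end. Over protein-coding genes the share with a far-end peak was 16.9%, so the 5 of 8 among the enzymes was not shared by these further genes.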

How the data were processed

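The submitters' processing notes name fastp, Bowtie2 and MACS2 and the builds mm10 and GRCm38, without versions or roles. The authors called peaks on 3 datasets joined by Samtools, as the deposited peak names record. For each peak the deposited list gives a ratio (fold enrichment against the background of the caller), a −log10 p, a −log10 q and a score, which equals 10 times −log10 q rounded down. It covers chromosomes 1 to 5, 10 to 19 and the first 88.8 Mb of chromosome 6; an incomplete last line was left out, and other chromosomes were not analysed here.

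Genes came from the RefSeq table of GRCm38.p6 (the first 3 Mb of a chromosome left out), strands and start sites from its promoter table. Positions are 1-based. Pileup and background were solved from fold = (pileup + 1)/(background + 1) and a Poisson tail, accepting whole pileups within 1% of a read. Of the listed peaks 99.97% matched, and that the caller works this way is inferred from this match. Of 5000 peaks simulated with the same formula 100% were recovered, which checks the arithmetic alone. Similar length means the 500 protein-coding genes nearest on a log scale. The planned test of control against cKO was not run, since no value belongs to a culture. The members and lists were chosen with earlier results of these data known. Named were the 9 genes with every peak, genes holding such a peak, the genes just shorter and longer, and of the further pathway genes those with a peak within 1 kb of an end and the 5 with most peaks, ties included; those without a peak, and single examples of a step, were named after their values were seen. Of the items under this rule, 2 are not reported here. Alternatives were a −log10 q of at least 100, at least the median fold, placement by summit or by 1 bp of overlap, windows of 0, 2 and 10 kb, peaks under 500 bp apart merged, the lowest background only, and 200 or 1000 neighbours in length or all genes of the table. Python 3.11.15, pandas 2.3.3, NumPy 2.4.6, SciPy 1.17.1 and Matplotlib 3.10.9 were used.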

Additional observations from a re-analysis of the deposited data

How the results depend on the processing

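No paired analysis was possible because no column belongs to a single culture, and no replicate could be left out. A value counted as moved when it changed by over 1.5 times. Of 48 values of the 5 summary results under the alternatives, 46 stayed within that. A peak was found at 8 genes under all 9 alternatives that changed the peaks or windows. Under all 12, 7 or 8 genes reached the median of genes of similar length. Shares over all protein-coding genes are given for the main setting only, apart from 64.7% with a peak in the gene body. Filters that remove peaks can lower the medians of genes of similar length too. The number of peaks fell from 42 to 22 at a −log10 q of at least 100 and to 27 at a fold of at least the median of the list, since both filters remove peaks. Of 81 counts at single genes, 12 moved. Without flanks Acadvl went from 7 to 3 peaks, the others lying in Dvl2, and at the stricter −log10 q Acads went from 8 to 3. Hadhb had 0 under each alternative. Depth per culture is unknown, so no limit of detection can be given.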
